A study of Mus musculus with 2 samples.

Results

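The endothelin genes read here were Edn1 and Edn3, which encode the secreted peptides endothelin-1 and endothelin-3, Ece1, which encodes the endothelin-converting enzyme, and Ednra and Ednrb, which encode the type A and type B receptors. They were taken by gene symbol, 5 of the 28692 genes listed for each library, and read in every barcode with at least 8000 UMIs (unique molecular identifiers, 1 per captured RNA molecule) and at most 20% of UMIs from mitochondrial genes. That left 8926 dorsal and 10649 ventral cells, 19575 in all. The dorsal library came from tissue at the back of the heart's base in C57Bl6 mice 3 days after birth, with the pulmonary veins, the cardiac ganglia and the sinoatrial node. The ventral library came from the same mice and held the outflow tract base, the pulmonary artery and the proximal aorta. Cells of 15 hearts of both sexes were pooled by domain and kept as adherent cultures for 5 days before 10x 3' v3 capture, so each domain is 1 library of 1 culture and there are no replicates. Nothing measures the spread between cultures, no test was possible, and every interval given is a 95% interval for counting error only.

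Endothelins are made as larger precursors that furin-type proteases trim and endothelin-converting enzyme cuts into the active peptide. Both receptors couple to G proteins: the type A receptor prefers endothelin-1 and is best known on vascular smooth muscle and on neural crest-derived mesenchyme of the arches and great arteries, while the type B receptor binds endothelin-1 and endothelin-3 alike, is found on endothelium, and is needed in crest cells that form enteric neurons and melanocytes. In the outflow tract, endothelin-1 from endothelium acts on crest cells that carry the type A receptor, and mice without either gene have defects of the great arteries.

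The promoters of the ligand and of both receptors are printed first because their levels differed most between domains or cell classes. Each runs from 250 bases before to 50 after the transcription start in RefSeq (GRCm38.p6, which is mm10), reads 5' to 3' on the gene's strand, and has in capitals every match, on either strand, to the motifs searched. The Edn1 window is chr13:42301226-42301525 on the plus strand, the Ednra window chr8:77724403-77724702 on the minus strand and the Ednrb window chr14:103843652-103843951 on the minus strand. All 5 members had a RefSeq entry.
Edn1: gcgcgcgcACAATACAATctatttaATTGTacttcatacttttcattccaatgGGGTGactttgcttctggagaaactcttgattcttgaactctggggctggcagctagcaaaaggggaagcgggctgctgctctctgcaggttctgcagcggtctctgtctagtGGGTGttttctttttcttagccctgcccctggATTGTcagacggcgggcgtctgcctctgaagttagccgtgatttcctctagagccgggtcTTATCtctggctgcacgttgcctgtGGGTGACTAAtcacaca
Ednra: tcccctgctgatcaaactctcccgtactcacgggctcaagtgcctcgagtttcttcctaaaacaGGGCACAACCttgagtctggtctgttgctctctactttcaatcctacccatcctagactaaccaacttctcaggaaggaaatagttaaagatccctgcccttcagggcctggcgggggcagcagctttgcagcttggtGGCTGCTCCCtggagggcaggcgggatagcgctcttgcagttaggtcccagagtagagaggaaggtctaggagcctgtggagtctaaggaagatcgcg
Ednrb: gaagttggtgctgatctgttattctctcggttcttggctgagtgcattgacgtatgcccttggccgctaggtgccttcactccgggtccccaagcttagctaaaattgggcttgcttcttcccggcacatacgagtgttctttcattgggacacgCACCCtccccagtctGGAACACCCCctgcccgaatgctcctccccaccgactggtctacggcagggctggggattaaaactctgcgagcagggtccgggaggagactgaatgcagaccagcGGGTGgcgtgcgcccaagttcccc

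The motifs were GATAA for GATA factors, TGANTCA or TGACTAA for AP-1, CACCC for Krüppel-like factors, GGG and CC with any 5 bases between for NF-kappaB and ACAAAG or ACAAT for SOX factors. Of 32851 mouse promoters of the same length, 25.4% held the GATA letters, 9.90% the AP-1 letters, 57.5% the Krüppel-like letters, 50.8% the NF-kappaB letters and 42.9% the SOX letters. The Edn1 window had 1 GATA match (bases 9 to 13 after the start), 1 AP-1 match (bases 37 to 43, sharing 2 bases with a Krüppel-like match at 34 to 38), 3 Krüppel-like matches and 4 SOX matches. The Ednra window had 2 NF-kappaB matches and none of the other motifs. The Ednrb window had 3 Krüppel-like matches and 1 NF-kappaB match, which contains 1 of those 3. A match is only a description of the letters.

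In the GENCODE annotation of the same build, Edn1 lies at chr13:42301476-42307990 on the plus strand, Edn3 at chr2:174760619-174784042 on the plus strand and Ece1 at chr4:137862237-137965229 on the plus strand. Ednra lies at chr8:77663031-77724464 and Ednrb at chr14:103814625-103844402, both on the minus strand. The Ednrb window printed above lies wholly inside this annotated gene, as the RefSeq start used is downstream of the GENCODE 5' end. All 5 are protein-coding. Edn1, Ece1 and Ednra each overlap a gene on the opposite strand (Gm47118, Gm13012 and 4933431K23Rik). Whether the authors' counting used strand is not given in the sources used here, so reads of one gene of such a pair could be counted under the other. Gm13012 had 36 dorsal and 8 ventral UMIs, against 6152 and 10204 for Ece1; the partners of Edn1 and Ednra were not analysed here.

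The libraries were of like depth. The cells held 229117951 UMIs dorsally and 253103590 ventrally, 92.8% and 95.6% of all UMIs, with medians of 22774 and 21462 UMIs and 4512 and 4303 genes per cell. The libraries shared 22 cell barcodes, where 13.99 would be shared by chance. Levels below are CPM, the UMIs of a gene in the summed cells scaled to a common total. Each UMI is a 3' end, so CPM needs no division by gene length, but capture differs between genes and levels are compared only within a gene. Cells were grouped into 22 clusters with the members and their pathway genes left out, and named from marker genes as endothelial-like, Schwann and glial-like, macrophage-like, cardiomyocyte-like, skeletal muscle-like, mural-like (smooth muscle and pericytes), mesothelial-like or fibroblast-like. Cardiomyocyte-like cells numbered 37 dorsal and 29 ventral, and no cluster met the rule for autonomic neurons or melanocytes.

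The ligand and the converting enzyme were higher in the ventral library, and both receptors in the dorsal library. Edn1 stood at 26.9 CPM in dorsal cells (95% interval 26.2 to 27.6; 6161 UMIs) and 39.4 CPM in ventral cells (38.6 to 40.2; 9976 UMIs), a log2 ratio, dorsal over ventral, of -0.55 (-0.60 to -0.51). Ece1 stood at 26.9 CPM in dorsal cells (26.2 to 27.5) and 40.3 CPM in ventral cells (39.5 to 41.1), a log2 ratio of -0.59 (-0.63 to -0.54). The intervals of the domains do not overlap for either gene, and both ventral excesses are under 2-fold.

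For the receptors the order was the reverse. Ednra stood at 23.7 CPM in dorsal cells (23.1 to 24.3; 5426 UMIs) and 8.12 CPM in ventral cells (7.77 to 8.48; 2055 UMIs), 2.92-fold higher in dorsal cells, with a log2 ratio of 1.54 (1.47 to 1.62). Ednrb stood at 20.7 CPM in dorsal cells (20.1 to 21.3; 4740 UMIs) and 5.07 CPM in ventral cells (4.80 to 5.36; 1284 UMIs), 4.08-fold higher in dorsal cells, with a log2 ratio of 2.03 (1.94 to 2.12). Thus 2 of the 4 members with at least 50 UMIs passed 2-fold in the dorsal direction and 0 in the ventral direction. Of 15719 genes with that many UMIs, 12.8% had a dorsal excess of 2-fold or more and 6.03% a ventral one, and their median log2 ratio was 0.12. With 4 members, the count describes these genes and is not set against chance. Single groups of cells carried much of it: without the dorsal cluster led by Gdf10 the Ednra log2 ratio was 0.89, under 2-fold, and without endothelial-like cells the Ednrb log2 ratio was 1.52.

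**Figure D1:**
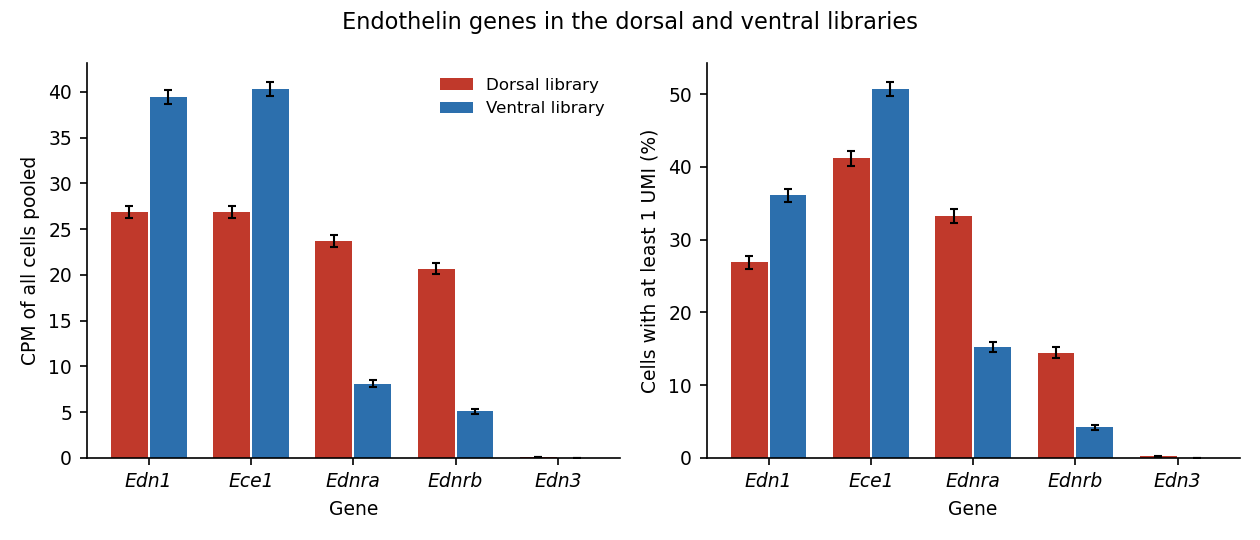
Level in CPM (left) and share of cells with at least 1 UMI in percent (right) of the 5 endothelin genes; bars are the dorsal (red) and ventral (blue) libraries, n = 1 library each, and error lines are 95% counting intervals. Edn1 and Ece1 are higher in the ventral library, Ednra and Ednrb in the dorsal library (23.7 and 8.12 CPM for Ednra), and Edn3 is near 0.

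The share of cells with at least 1 UMI gave the same order. Edn1 was found in 2398 dorsal cells (26.9%) and 3843 ventral cells (36.1%), and Ece1 in 3677 dorsal cells (41.2%) and 5405 ventral cells (50.8%). Ednra was found in 2971 dorsal cells (33.3%) and 1616 ventral cells (15.2%), and Ednrb in 1288 dorsal cells (14.4%) and 445 ventral cells (4.18%). After each cell was thinned to 8000 UMIs the dorsal and ventral shares were 13.1% and 18.8% for Edn1, 18.8% and 24.6% for Ece1, 17.5% and 6.50% for Ednra, and 7.75% and 2.38% for Ednrb.

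RNA outside cells bears on these shares. In barcodes with at most 100 UMIs, Edn1 stood at 26.2 CPM in the dorsal and 40.2 CPM in the ventral library. Ece1 stood there at 27.9 and 40.1 CPM, Ednra at 21.1 and 10.0 CPM, and Ednrb at 16.0 and 7.01 CPM. Each was near its level in cells of the same library. Cell classes nevertheless kept very low levels of single members. Ednra had a UMI in 2.04% of dorsal and 2.27% of ventral endothelial-like cells (median depths 19580.5 and 17625.5 UMIs), and Ednrb in 0 of 705 cells of a mural-like cluster led by Sost and Igfbp2, which allows a share of cells with a UMI of up to 0.426% (3 counts of 705). Shares near these values are read below as background. Receptor RNA outside cells was itself higher in the dorsal library, and Edn1 and Ece1 RNA outside cells in the ventral library. The part of background in dorsal receptor excesses, or in ventral Edn1 and Ece1 excesses, at levels below it was not tested.

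Edn3, the ligand that the type B receptor is best known for in crest development, was almost absent. It had 17 UMIs in 17 dorsal cells, each with 1 UMI, and 0 in ventral cells. That is 0.0742 CPM in dorsal cells, at least 6.26-fold higher than the 0.0119 CPM that 3 counts would give in the ventral library. Of the 17 cells, 14 were fibroblast-like (7 of them in the cluster led by Gdf10, 4 in that led by Thbs4 and Grem1, and 3 in that led by Cxcl13), 2 mesothelial-like and 1 in an unnamed cluster. Fibroblast-like cells were 49.4% of the dorsal library. None of the 17 was endothelial-like or glial-like. Those classes were 1.10% and 4.66% of dorsal cells, so their absence among 17 cells says little. No Edn3 UMI lay in the barcodes with at most 100 UMIs. Edn2, the third endothelin, had 17 dorsal and 19 ventral UMIs and was as sparse.

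The 4 measured members were spread very differently over single cells. The 1% of cells richest in Ednrb held 48.2% of its UMIs in the dorsal library (89 cells) and 60.2% in the ventral library (106 cells). The same share of cells held 21.4% and 23.7% of Edn1, 12.0% and 15.8% of Ednra, and 11.5% and 9.69% of Ece1. The richest cell had 137 dorsal and 21 ventral UMIs for Ednrb, 61 and 166 for Edn1, 22 and 22 for Ece1, and 14 and 11 for Ednra. Ednrb was thus held by few cells with many molecules, and Ece1 and Ednra by many cells with few.

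Endothelial-like cells were the richest class for Edn1 and Ece1 in both libraries and for Ednrb in the dorsal library, and had little Ednra, with 2 dorsal and 4 ventral UMIs. The class is 1 cluster of 98 dorsal and 132 ventral cells, 1.10% and 1.24% of cells, with all 10 of its fixed markers raised. Pecam1 and Cdh5, which mark endothelium, stood at 442 and 762 CPM in its dorsal cells and 420 and 914 CPM in its ventral cells. It held 6.36% of dorsal and 18.5% of ventral Edn1 UMIs, and 40.7% of dorsal and 15.7% of ventral Ednrb UMIs.

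Within that class the ligand and the type B receptor were high in different domains. Edn1 stood at 168 CPM in dorsal endothelial-like cells (152 to 185) and 654 CPM in ventral ones (625 to 685), 3.90-fold higher in ventral cells (log2 ratio -1.96, -2.12 to -1.81). Ednrb stood at 825 CPM in dorsal endothelial-like cells (789 to 863) and 71.5 CPM in ventral ones (62.0 to 82.1), 11.5-fold higher in dorsal cells (log2 ratio 3.53, 3.32 to 3.74). Ece1 was close in both, at 235 CPM in dorsal cells (216 to 256) and 266 CPM in ventral cells (248 to 286). In this class 6.62% of 8148 genes had a dorsal excess of 2-fold or more and 3.82% a ventral one; 1 of the 3 members measured was past that fold in each direction. The class has 98 dorsal cells, just under the minimum of 100 set for such comparisons, and was added with its values in view.

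Counts per cell showed the same difference between the domains. Single cells could still hold both genes: the dorsal cell with 56 Edn1 UMIs had 31 Ednrb UMIs. Dorsal endothelial-like cells had a median of 13.5 Ednrb UMIs (quartiles 4 and 29.75, highest 137), and ventral ones a median of 0 (quartiles 0 and 1, highest 17). Ednrb had a UMI in 93.9% of the dorsal and 28.0% of the ventral cells. For Edn1 the median was 0 UMIs in dorsal cells (highest 56) and 5 in ventral cells (quartiles 0 and 17, highest 166), with a UMI in 36.7% of dorsal and 68.9% of ventral cells. The ranges of the domains overlap for both genes.

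**Figure D2:**
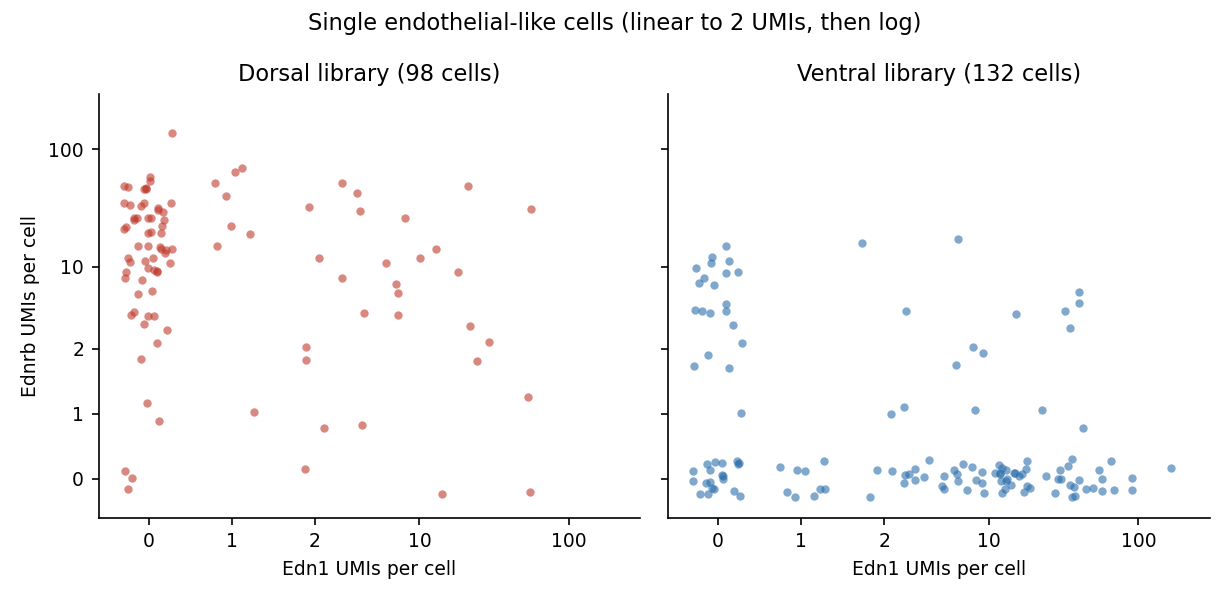
Each point is 1 endothelial-like cell, with Edn1 UMIs on the x axis and Ednrb UMIs on the y axis (linear to 2 UMIs, then log; points are jittered by up to 0.3 UMI); left, 98 dorsal cells, right, 132 ventral cells, 1 library each. Dorsal cells lie high on the Ednrb axis (median 13.5 UMIs) and mostly at 0 for Edn1, and ventral cells lie along the Edn1 axis (median 5 UMIs) and mostly at 0 for Ednrb.

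The endothelial-like cells of the domains were of different kinds. Clustering them alone gave 7 sub-clusters, each mostly from 1 library, so the domain and the kind of endothelium cannot be told apart. In the dorsal library, 52 cells in a sub-cluster led by Selp and Neurl3 had Ednrb at 1368 CPM and Edn1 at 156 CPM. A further 24 dorsal cells led by Ccl21a and Lyve1, markers of lymphatic endothelium, had Ednrb at 792 CPM and Edn1 at 76.6 CPM. The remaining larger dorsal sub-cluster, 18 cells led by Tmem252 and Bmp2, had Ednrb at 132 CPM and Edn1 at 74.8 CPM, and a UMI of the arterial gene Sox17 in every cell. Among these dorsal sub-clusters Ednrb was lowest where Sox17 was most widespread. The few ventral cells in these sub-clusters were also high in Ednrb: 4 led by Ccl21a and Lyve1 had 4 to 15 UMIs each, 731 CPM (527 to 988), and 1 led by Selp and Neurl3 had 16 UMIs.

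In the ventral library, 38 cells in a sub-cluster led by Ankrd1 and Sp5 had Edn1 at 1902 CPM, in 97.4% of its cells, and Ednrb at 22.7 CPM. Another 36 ventral cells, led by Tmem178 and Hey1, had Edn1 at 279 CPM and Ednrb at 27.6 CPM. With its 1 dorsal cell, that sub-cluster had the arterial genes Gja4 and Dll4 at 482 and 316 CPM. Dll4 was as high, at 317 CPM, in the dorsal cells led by Tmem252 and Bmp2, where Gja4 stood at 53.6 CPM. A further 36 ventral cells, led by Clu and Hand2, had Edn1 at 313 CPM and Ednrb at 184 CPM. That was the highest Ednrb of the sub-clusters with more than 4 ventral cells. The few dorsal cells in ventral sub-clusters were high in Edn1: 3 led by Ankrd1 and Sp5 had 14 to 55 UMIs each, 1054 CPM (849 to 1294), and 1 led by Tmem178 had 53. Their Ednrb was low, with 3 UMIs in those 3 cells together and 1 in the last. Without the cells led by Ankrd1 and Sp5, Edn1 was 134 CPM dorsally and 306 CPM ventrally (log2 ratio -1.19). Without those led by Selp and Neurl3, Ednrb stood at 425 CPM dorsally and 66.5 CPM ventrally (log2 ratio 2.67), and without those led by Ccl21a and Lyve1 it stood at 837 and 57.8 CPM (3.86). The last 17 ventral cells, led by Eln and Tagln, had Edn1 at 383 CPM and the fibroblast markers Col1a1 and Col1a2 at 829 and 977 CPM; 8 of them were marked as doublets.

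Markers of vessel type moved with the domain in the same class. Lyve1 and Ccl21a stood at 1277 and 1070 CPM in dorsal endothelial-like cells and 72.2 and 141 CPM in ventral ones. The arterial genes Sox17 and Gja4 stood at 133 and 62.5 CPM in dorsal cells and 505 and 311 CPM in ventral cells. All 6 listed lymphatic markers were higher in dorsal cells and all 6 listed arterial markers in ventral cells. The 5 listed endocardial markers were mixed, with Plvap at 276 CPM dorsally and 52.4 CPM ventrally, Cdh11 at 37.7 and 34.3 CPM and Npr3 at 11.1 and 22.3 CPM. The part of vessel type in the Edn1 and Ednrb differences was not tested beyond leaving out the sub-clusters above.

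Glial-like and macrophage-like cells carried the type B receptor at like levels in both domains. Among Schwann and glial-like cells (416 dorsal, 182 ventral), which express Sox10, Ednrb stood at 120 CPM in dorsal cells (111 to 129) and 112 CPM in ventral cells (101 to 124), and the log2 ratio was 0.10 (-0.08 to 0.28). A UMI was found in 71.9% of the dorsal and 65.4% of the ventral cells. Among macrophage-like cells (195 dorsal, 131 ventral), Ednrb stood at 89.3 CPM in dorsal cells (83.2 to 95.6) and 95.7 CPM in ventral cells (86.3 to 106), a log2 ratio of -0.10 (-0.28 to 0.08). Both intervals hold 0, and their bounds are under 2-fold; over the alternative clusterings and without doublets the glial-like ratio lay between -0.03 and 0.15.

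In the glial-like class 4.52% of genes had a dorsal excess of 2-fold or more and 3.67% a ventral one, and 0 of 3 measured members passed in either direction. Ece1 was nearly level, at 31.0 CPM dorsally and 32.6 CPM ventrally. Edn1 was low, at 5.08 CPM (31 UMIs) in dorsal and 7.56 CPM (26 UMIs) in ventral cells. Ednra had a UMI in 2.88% and 4.40% of them, near the share in endothelial-like cells. Without glial-like cells the Ednrb log2 ratio over the remaining cells was 2.32, against 2.03 with them.

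In the macrophage-like class 4.54% of genes had a dorsal excess of 2-fold or more and 3.21% a ventral one, and 1 of 4 members, Ednra, passed in dorsal cells. It stood at 6.50 CPM (59 UMIs) in dorsal and 2.02 CPM (8 UMIs) in ventral cells (log2 ratio 1.68, 0.61 to 2.96). These levels are below those of Ednra in barcodes with at most 100 UMIs. Doublets were marked differently by library, as the highest-scoring cells up to the expected number dorsally and by the automatic call ventrally. Of the macrophage-like cells 39 of 195 dorsal and 9 of 131 ventral were marked as doublets. Without them Ednra stood at 3.17 CPM dorsally and 1.96 CPM ventrally (log2 ratio 0.70, -0.59 to 2.17), while Ednrb stood at 94.5 and 99.1 CPM. Edn1 stood at 10.6 CPM in all dorsal and 6.33 CPM in all ventral macrophage-like cells (0.74, 0.09 to 1.44), and at 4.98 and 4.47 CPM without those doublets (0.16). Ece1 stood at 20.3 and 25.8 CPM.

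Fibroblast-like cells made up most of both libraries, with 4405 dorsal and 7287 ventral cells, and both receptors were higher in the dorsal ones. Ednra stood at 39.1 CPM in dorsal fibroblast-like cells (37.9 to 40.3) and 9.57 CPM in ventral ones (9.11 to 10.0), 4.08-fold higher in dorsal cells (log2 ratio 2.03, 1.95 to 2.11). Ednrb stood at 8.24 CPM in dorsal cells (7.70 to 8.81) and 1.26 CPM in ventral cells (1.10 to 1.44), 6.52-fold higher in dorsal cells (log2 ratio 2.70, 2.49 to 2.93). An Ednra UMI was found in 48.0% of dorsal and 17.6% of ventral cells, and an Ednrb UMI in 11.1% and 2.03%. In barcodes with at most 100 UMIs Ednrb was higher, at 16.0 CPM dorsally and 7.01 CPM ventrally. The part of background in this Ednrb ratio was not tested.

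The ligand and the enzyme went the other way over the class as a whole. Edn1 stood at 23.5 CPM dorsally and 35.2 CPM ventrally (log2 ratio -0.58, -0.65 to -0.52). Ece1 stood at 20.3 CPM dorsally and 40.0 CPM ventrally (log2 ratio -0.98, -1.05 to -0.91), just under 2-fold. None of these levels was above that in barcodes with at most 100 UMIs. There Edn1 stood at 26.2 CPM dorsally and 40.2 CPM ventrally, and Ece1 at 27.9 and 40.1 CPM. The part of background in both ratios was not tested. In this class 11.5% of genes had a dorsal excess of 2-fold or more and 7.1% a ventral one; 2 of 4 members passed in dorsal cells and 0 in ventral.

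Different clusters hold the class in each domain. The dorsal cells lie in a cluster led by Gdf10 and Cdo1 (2044 cells), one led by Cxcl13 and Tnfsf8 (1970) and one led by Thbs4 and Grem1 (359). Ednra was at 67.4 CPM in the Gdf10 cluster, 24.5 CPM in the Cxcl13 cluster and 18.2 CPM in the Thbs4 cluster, with a UMI in 56.1%, 44.0% and 26.2% of cells. Ednrb ran in the opposite order, at 4.07, 7.0 and 37.1 CPM. The ventral clusters, led by Gpx3 and Hsd11b1 (3119 cells), Epha3 and Angpt2 (2689) and Fmod and Scx (1477), had Ednra at 6.36, 14.8 and 6.11 CPM and Ednrb at 1.04, 1.77 and 0.713 CPM. Within the class the lowest dorsal cluster was above the highest ventral one in CPM for both receptors. For Ednra these were the Thbs4 cluster (15.4 to 21.4) and the Epha3 cluster (13.9 to 15.8), whose intervals overlap. An Ednra UMI was found in 26.2% of the Thbs4 cells and 26.7% of the Epha3 cells. In the same order of clusters, Edn1 did not separate, at 32.7, 19.3 and 5.43 CPM dorsally and 29.7, 45.3 and 28.6 CPM ventrally. Ece1 was higher in each ventral cluster, at 20.02, 19.4 and 27.7 CPM dorsally and 34.0, 30.9 and 68.9 CPM ventrally. Its nearest clusters, Thbs4 (24.3 to 31.6) and Epha3 (29.6 to 32.3), have intervals that overlap. A large dorsal cluster outside the class, led by Sele and Fbln1 (1588 dorsal cells) and left unnamed, had Ednra at 9.57 CPM, below the ventral Epha3 cluster, and Ednrb at 3.52 CPM, above all the ventral fibroblast-like clusters. Without the Gdf10 cluster, Ednra stood at 23.5 CPM dorsally and 9.57 CPM ventrally (log2 ratio 1.30). Without the Thbs4 cluster, Ednrb stood at 5.79 and 1.26 CPM (2.20).

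**Figure D3:**
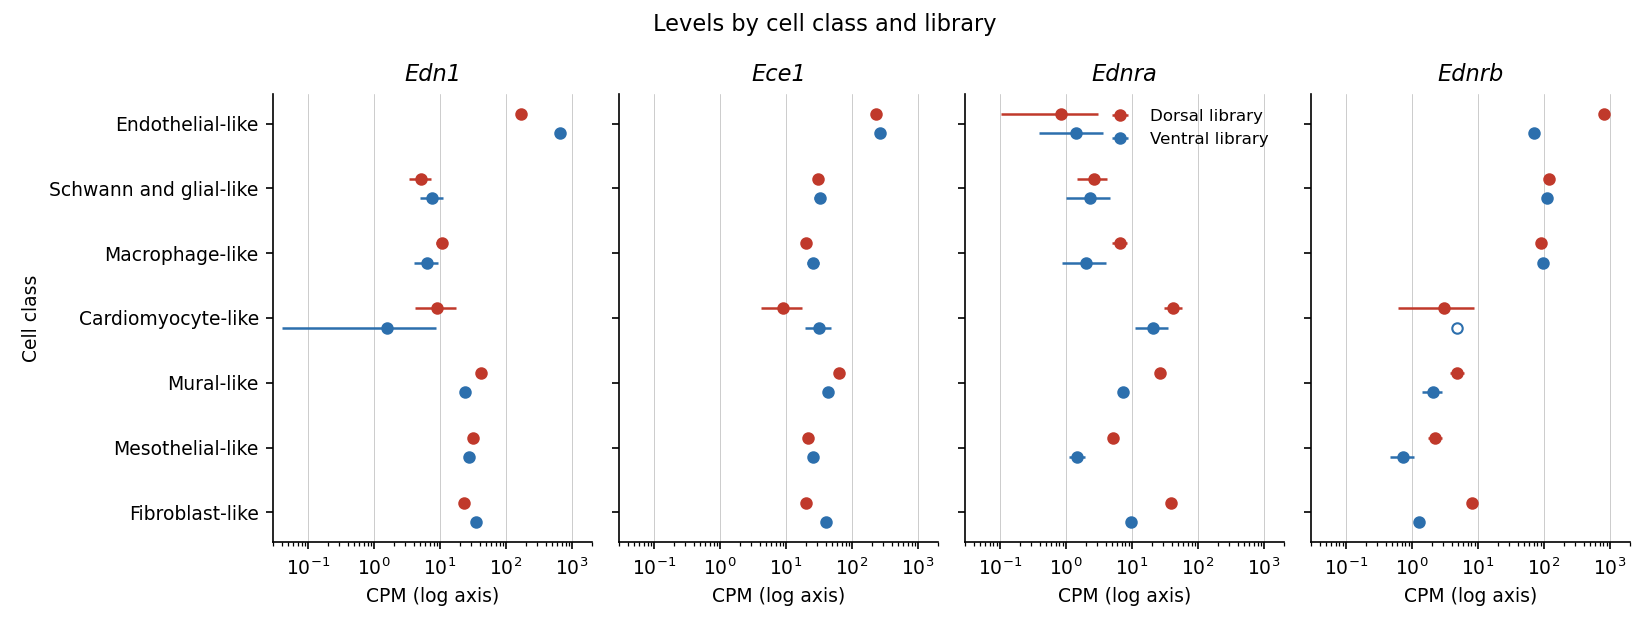
Level in CPM (log axis) of 4 endothelin genes in 7 cell classes, with dorsal (red, above) and ventral (blue, below) libraries, n = 1 library each; lines are 95% counting intervals and an open circle is the level that 3 counts would give where none was found. Ednrb is 825 and 71.5 CPM in endothelial-like cells and near 100 CPM in both libraries in glial-like and macrophage-like cells, and Ednra is under 2 CPM in endothelial-like cells.

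Mural-like cells, the class in which the type A receptor is best known, had it at a modest level. Ednra stood at 26.4 CPM in dorsal mural-like cells (856 cells; 23.9 to 29.1) and 7.35 CPM in ventral ones (933 cells; 6.09 to 8.81), a log2 ratio of 1.84 (1.54 to 2.15). Ednrb was low, at 4.89 CPM dorsally and 2.06 CPM ventrally (log2 ratio 1.25, 0.64 to 1.89). Both of these lay below its levels in barcodes with at most 100 UMIs. Unlike in the whole libraries, Edn1 and Ece1 were also higher in dorsal cells here: Edn1 at 42.5 and 24.1 CPM (log2 ratio 0.82, 0.63 to 1.0) and Ece1 at 64.3 and 43.1 CPM (0.58, 0.43 to 0.72). When the pathway genes were kept in the clustering, the dorsal cluster led by Cxcl15 and Itih4 lost its name and the class held 192 dorsal and 880 ventral cells; the Edn1 log2 ratio was then -0.32 and that of Ednrb 2.98. With doublets removed before clustering the Ednrb ratio was just under 2-fold.

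In the mural-like class 10.6% of genes had a dorsal excess of 2-fold or more and 4.27% a ventral one, and 2 of 4 members, the receptors, passed in dorsal cells. The dorsal cells lie in a cluster led by Cxcl15 and Itih4 (667 cells), with Ednra at 24.8 CPM and Edn1 at 49.6 CPM, and one led by Des and Actg2 (173 cells), with Ednra at 33.6 CPM, Ece1 at 89.4 CPM and Edn1 at 10.9 CPM. The ventral cells lie in one led by Sost and Igfbp2 (693 cells), with Ednra at 4.83 CPM, and one led by Higd1b and Ehd3 (234 cells), with Ednra at 15.0 CPM. The Des cluster had 10 of 10 smooth muscle markers raised and the Sost cluster 8 of 10, so clusters with the smooth muscle markers lay at both ends of the Ednra range within the class.

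Mesothelial-like cells (1054 dorsal, 1092 ventral), named after the cells that line the heart's surface, had little of either receptor. Ednra stood at 5.13 CPM dorsally and 1.49 CPM ventrally (log2 ratio 1.78, 1.31 to 2.27), and Ednrb at 2.26 and 0.732 CPM (1.63, 0.94 to 2.36). Edn1 stood at 32.0 and 27.3 CPM (0.23, 0.10 to 0.36) and Ece1 at 21.8 and 26.0 CPM (-0.25, -0.40 to -0.10). In this class 7.42% of genes had a dorsal excess of 2-fold or more and 7.94% a ventral one, with 2 of 4 members past that fold in dorsal cells. Those members are the receptors, at levels below those in barcodes with at most 100 UMIs. There Ednra stood at 21.1 CPM dorsally and 10.0 CPM ventrally, and Ednrb at 16.0 and 7.01 CPM. The part of background in these mesothelial-like ratios was not tested. The dorsal cells come from a cluster led by Saa3 and Hpgd with 4 of 10 mesothelial markers raised, and the ventral cells from one led by Upk1b and Msln with 9 of 10, so the class is less alike between domains than its name says.

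Cardiomyocyte-like cells were among the clusters with the most Ednra. In 37 dorsal cells it stood at 42.4 CPM (42 UMIs; 30.5 to 57.3), with a UMI in 59.5% of them, and in 29 ventral cells at 20.6 CPM (13 UMIs; 11 to 35.2), with a UMI in 34.5%. Those intervals overlap; the log2 ratio was 1.04 (0.12 to 2.06), but -0.075 when 4000 variable genes were used and skeletal muscle cells joined the class. Edn1 had 9 dorsal UMIs and 1 ventral UMI in these cells, and Ednrb 3 and 0.

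Where a class had 100 or more cells per library (5 classes), 19 pairs of a member and a class had at least 50 UMIs. Of these, 7 had a dorsal excess of 2-fold or more, all of them a receptor, 0 a ventral one, and 12 lay within 2-fold. In those classes 4.52% to 11.5% of genes had such a dorsal excess and 3.21% to 7.94% a ventral one. Among the 7, Ednra in macrophage-like cells fell to a log2 ratio of 0.70 without marked doublets. In barcodes with at most 100 UMIs both receptors were higher than in mesothelial-like cells, in both libraries. There Ednra was also higher than in macrophage-like cells, and Ednrb than in mural-like and fibroblast-like cells. The part of background in these ratios was not tested. With the endothelial-like class there were 22 pairs, 8 higher in dorsal and 1 in ventral cells, which is Edn1 in endothelial-like cells. With each class held at its mean share of the libraries, the log2 ratios over all cells were 1.98 for Ednra and 1.52 for Ednrb, against 1.54 and 2.03 as pooled.

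**Figure D4:**
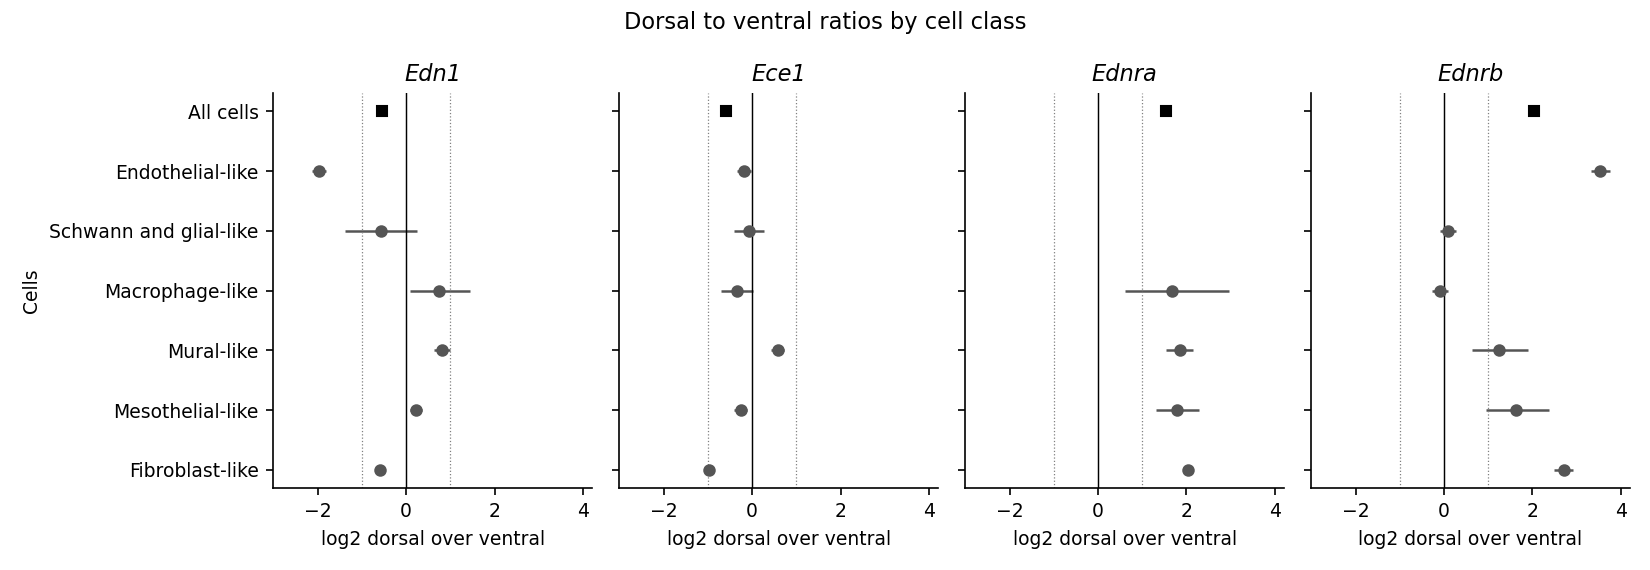
Log2 ratio of CPM, dorsal over ventral, for 4 endothelin genes over all cells (square) and within 6 cell classes (circles), where at least 50 UMIs were found; lines are 95% counting intervals, dotted lines mark 2-fold, and each domain is 1 library. Ednra lies right of 0 in every class shown, while Ednrb lies at 0.10 in glial-like and -0.10 in macrophage-like cells and at 3.53 in endothelial-like cells, and Edn1 at -1.96 in endothelial-like cells.

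Ranked over the 20 clusters with at least 50 cells, Ednra was highest in the Gdf10 cluster at 67.4 CPM. The next were the cardiomyocyte-like cluster at 33.9 CPM, the Des cluster at 33.6, the Cxcl15 cluster at 24.8 and the Cxcl13 cluster at 24.5, neighbours whose intervals overlap. The lowest were the endothelial-like cluster at 1.16 CPM and the mesothelial-like cluster led by Upk1b at 1.48 CPM, whose intervals overlap. Ednrb was highest in the endothelial-like cluster at 413 CPM, then the glial-like at 117, the macrophage-like at 91.2, the Thbs4 cluster at 37.1 and the Des cluster at 16.7, with a median of 3.79 CPM over the clusters. Edn1 and Ece1 both had the endothelial-like cluster at the top, at 434 and 252 CPM. The 3 clusters with the most Ednrb had Ednra at 1.16, 2.52 and 5.14 CPM, while the Des cluster ranked 3 for Ednra and 5 for Ednrb and the Thbs4 cluster had Ednra at 18.2 CPM.

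**Figure D5:**
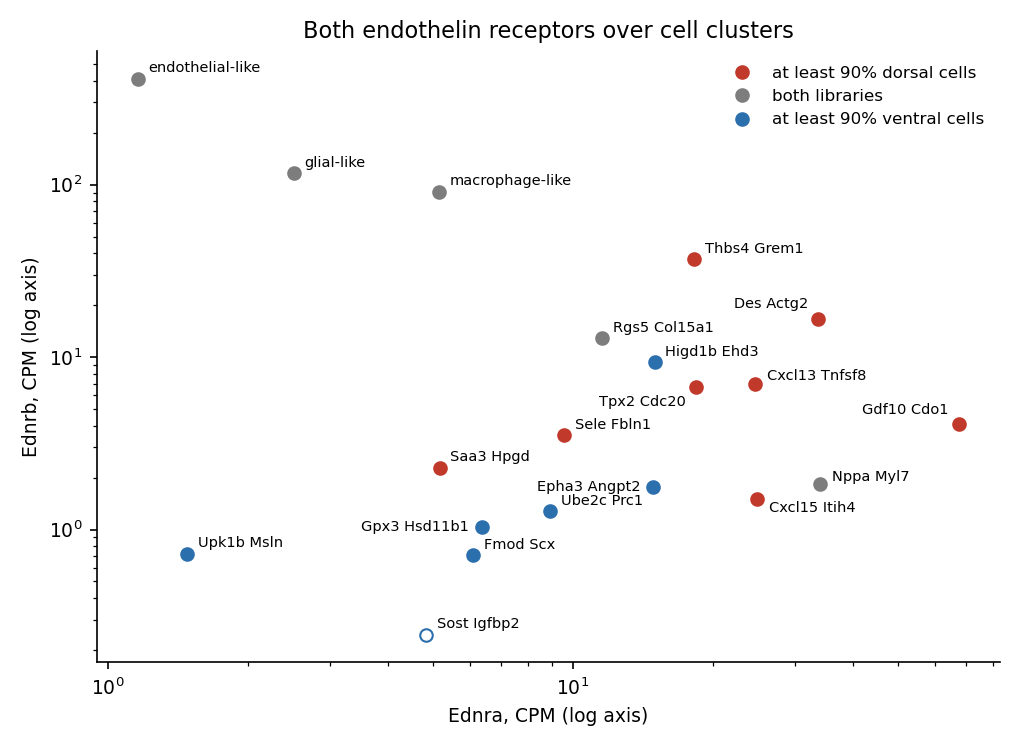
Ednra (x axis) against Ednrb (y axis) in CPM, both log axes, in 20 clusters of at least 50 cells, each labelled with 2 leading genes or, for 3 of them, the class name, and coloured by whether at least 90% of its cells are dorsal (red) or ventral (blue) or neither (grey); the open circle is the level that 3 counts would give. The endothelial-like, glial-like and macrophage-like clusters lie at high Ednrb and low Ednra, and the Gdf10 cluster at 67.4 CPM of Ednra and 4.07 CPM of Ednrb.

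Across those clusters, Pearson's r of log2(CPM + 5) was 0.62 between Edn1 and Ece1, 0.42 between Ece1 and Ednrb, 0.15 between Edn1 and Ednrb, and -0.31 between the receptors. The clusters share libraries and differ in depth, so these are descriptions. Among the genes most like Edn1, of 8522 candidates, were Fam43a (0.84), Adcy4 (0.82), Plcg1 (0.81) and Tbx1 (0.81). For Ece1 the most alike were Dock6, Guk1, Tmem184b, Fzd6 and Eva1a (0.86 to 0.83), for Ednra Podn, Unc5c, Prrx2, Ift81 and Errfi1 (0.85 to 0.78), and for Ednrb Jmjd1c, Plxnd1, Tspan14, Zfand2a and Scyl2 (0.91 to 0.87).

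Single cells seldom carried both receptors. A UMI of both was found in 311 of 8926 dorsal cells (3.48%), where the product of the shares gives 428.71, and in 58 of 10649 ventral cells (0.54%), where it gives 67.53. With cells thinned to 8000 UMIs the counts were 66 against 120.94 dorsally and 5 against 16.44 ventrally. Without marked doublets they were 244 against 371.03 and 45 against 59.11. Within classes the counts lay on both sides of the product: 213 against 233.61 in dorsal and 39 against 26.0 in ventral fibroblast-like cells, 22 against 15.91 in dorsal and 4 against 2.1 in ventral mural-like cells, and 24 against 21.33 in dorsal macrophage-like cells. The shortfall over all cells was thus not seen in every class. Of 98 dorsal endothelial-like cells, 90 had Ednrb alone, 2 both and 0 Ednra alone, and of 132 ventral ones 37, 0 and 3.

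Cells with an Isl1 UMI, the crest and progenitor factor in the study's title, numbered 224 dorsal and 319 ventral, and 196 and 272 of them had a single one. The level of Isl1 was 1.15 CPM dorsally and 1.51 CPM ventrally, and 1.08 CPM (4 UMIs) and 1.14 CPM (8 UMIs) in the barcodes with at most 100 UMIs, so many of these UMIs may be background; among macrophage-like cells 0 of 195 dorsal and 2 of 131 ventral had one. Of the cells with Isl1, 103 dorsal and 208 ventral were fibroblast-like, 67 and 44 mesothelial-like and 21 and 0 skeletal muscle-like. Mesothelial-like cells, which are low in both receptors, were 29.9% of the dorsal cells with Isl1 and 11.8% of the dorsal library. In the whole dorsal library, Ednrb stood at 10.9 CPM in cells with Isl1 (8.49 to 13.9) and 21.0 CPM in cells without (20.4 to 21.6), Ednra at 16.9 CPM (13.8 to 20.4) and 23.9 CPM (23.2 to 24.5), and Edn1 at 22.2 and 27.0 CPM. Among dorsal fibroblast-like cells alone, Ednrb stood at 4.55 CPM with Isl1 (2.35 to 7.95) and 8.33 CPM without (7.79 to 8.91), and Ednra at 31.5 CPM (25.1 to 39.0) and 39.3 CPM (38.1 to 40.5). These rest on 12 and 83 UMIs in the cells with Isl1. In the ventral library, Edn1 stood at 59.5 CPM in cells with Isl1 (54.5 to 64.8) and 38.7 CPM in cells without (37.9 to 39.5). Of those Edn1 UMIs 1 cell held 91, and the level was 49.5 CPM without it; among ventral fibroblast-like cells Edn1 stood at 42.2 CPM with Isl1 (36.9 to 47.9) and 35.0 CPM without (34.1 to 35.9). Ventral Ednra stood at 8.58 and 8.10 CPM and Ednrb at 6.06 and 5.04 CPM, with intervals that overlap. Cells with an Isl1 UMI were deeper, at medians of 25152 and 23991 UMIs, against 22739.5 and 21398.5 UMIs in cells without. The part of class, depth and background in these levels was not tested further.

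The pathway around the members was read from 6 lists of 90 genes, of which 83 had at least 50 UMIs. Of these, 18 passed 2-fold in the dorsal and 10 in the ventral direction, where 12.8% and 6.03% of all genes did. Of 12 genes for processing and clearance, 8 had at least 50 UMIs, 1 was past 2-fold in each direction, and the median log2 ratio was 0.03. Pcsk6, a furin-type protease, stood at 3.37 CPM dorsally and 16.2 CPM ventrally (-2.27), and Mme, which encodes neprilysin, a peptidase that degrades endothelins, at 21.8 and 4.62 CPM (2.24). Pcsk5 stood at 15.9 and 21.7 CPM (-0.45) and Pcsk7 at 5.15 and 6.02 CPM (-0.22). Ece2, the second converting enzyme, was level at 20.4 and 20.5 CPM; it overlaps Gm49333 on its own strand.

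The receptor coupling list moved little as a whole. Of its 25 genes, 1 passed 2-fold dorsally and 2 ventrally, where 12.8% and 6.03% of all genes did, with a median of -0.11. Rgs2, which limits Gq signalling, stood at 19.8 CPM dorsally and 2.05 CPM ventrally (3.27). Rgs4, a regulator of the same family, stood at 3.43 and 8.10 CPM (-1.24), Rock2, a kinase that acts in contraction, at 230 and 476 CPM (-1.05), and the phospholipase gene Plcb1 at 7.79 and 15.0 CPM (-0.95).

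Genes known downstream of Edn1 and Ednra in the arches were split. Of 10 measured, 3 passed 2-fold dorsally and 2 ventrally, where 12.8% and 6.03% of all genes did, with a median of 0.19. Hand2 stood at 12.9 CPM dorsally and 42.4 CPM ventrally (-1.72), and Hand1 had 3 dorsal and 204 ventral UMIs (-5.94, -8.23 to -4.38). Dlx5 stood at 1.14 and 0.435 CPM (1.40) and Dlx6 at 0.445 and 0.178 CPM (1.32). Dlx3 had 2 dorsal and 9 ventral UMIs. The Hand genes and the pair Dlx5 and Dlx6 thus lay on opposite sides.

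The partners of Edn3 and Ednrb in the crest lineage were the list with the highest median. Of 9 genes, 5 passed 2-fold dorsally and 0 ventrally, with a median of 1.02, where 12.8% and 6.03% of all genes passed and their median was 0.12. Gdnf stood at 2.56 CPM dorsally and 0.838 CPM ventrally (1.61), its co-receptor gene Gfra1 at 7.21 and 2.91 CPM (1.31), and the glial factor gene Sox10 at 6.65 and 2.64 CPM (1.33). Without glial-like cells, which are more numerous in the dorsal library, 7 genes kept 50 UMIs, 4 of them past 2-fold dorsally, with a median of 1.06, and the median was 0.56 when every class was given its average share of the libraries. Within glial-like cells Sox10 stood at 219 CPM dorsally and 177 CPM ventrally and Gfra1 at 137 and 164 CPM.

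Of 10 factors known to act on Edn1 transcription, 3 passed 2-fold dorsally and 0 ventrally, where 12.8% and 6.03% of all genes did. The median was 0.77, against 0.12 for all genes. Edn1 itself was higher in ventral cells, and a link to these factors was not tested. Jun, an AP-1 subunit, stood at 258 CPM dorsally and 71.0 CPM ventrally (1.86), Nfkb1 at 129 and 44.2 CPM (1.54), Klf4 at 115 and 40.8 CPM (1.49) and Gata2 at 1.58 and 0.794 CPM (0.99). In endothelial-like cells, where Edn1 was 3.90-fold higher in ventral cells, the AP-1 gene Fos stood at 34.7 CPM dorsally and 80.4 CPM ventrally (-1.21) and the flow-responsive gene Klf2 at 314 and 497 CPM (-0.66). There Hif1a stood at 511 and 316 CPM (0.70), Nfkb1 at 114 and 73.7 CPM (0.63) and Jun at 361 and 237 CPM (0.60). Klf4 stood at 143 and 135 CPM (0.09), Rela at 74.5 and 73.7 CPM (0.02) and Gata2 at 23.5 and 26.9 CPM (-0.19). Foxo1 stood at 77.0 and 91.4 CPM (-0.25) and Smad3 at 11.6 and 17.7 CPM (-0.62).

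Of 21 measured genes of other vasoactive systems, 5 passed 2-fold in each direction, with a median of 0.23. Of all genes 12.8% passed dorsally and 6.03% ventrally. Nppb, the natriuretic peptide gene, stood at 6.96 CPM dorsally and 0.944 CPM ventrally (2.88), and Agtr2, an angiotensin receptor, at 23.1 and 4.92 CPM (2.23). Ramp1, a subunit of the calcitonin gene-related peptide receptor, stood at 8.64 and 60.9 CPM (-2.82), and Gucy1b1, a subunit of the nitric oxide receptor listed as Gucy1b3, at 27.2 and 109 CPM (-2.0).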

How the data were processed

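Single-cell 3' RNA-seq was read from 2 libraries, dorsal and ventral. Per the labels' protocols, cells of 15 hearts were pooled by domain and cultured for 5 days; Cell Ranger 3.0.2 and mm10 are named in the submitters' processing notes. The authors deposited raw UMI counts for 6794880 barcodes, with no filtering of cells and no cell annotation. The members and lists were chosen with earlier results of these data known.

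From the counts, barcodes with at least 8000 UMIs and at most 20% mitochondrial UMIs were kept and summed to CPM, with exact Poisson intervals (Clopper-Pearson for shares, conditional binomial for ratios) at 95%. The limit for a count of 0 is 3 counts. Cells were clustered with scanpy 1.11.5 (2000 variable genes without 95 endothelin pathway genes, 30 components, 15 neighbours, Leiden resolution 1.0). Each cluster was named for the marker list with the highest share of its genes found in at least 25% of cells and at least 2-fold higher than elsewhere (3 or more markers); a fibroblast-like one needed 5 markers in 50% of cells. This naming rule was set after the clusters were seen. Clusters led by cell cycle genes stayed unclassed. Doublets were kept, as the membership rule has none; Scrublet marked 0% of dorsal cells, so it had not worked there, and the expected 637 highest-scoring cells stood in for its call in the alternatives, beside 544 ventral cells. The ratio and its interval were tested on simulated data.

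Named genes are all members, up to 4 genes of each list furthest from a ratio of 1 with at least 50 UMIs, Edn2, Ece2 and Mme, and for each member the 5 genes with the most similar levels over clusters; genes that this rule names and the text does not are not reported here. For endothelial-like cells all listed factors acting on Edn1 transcription are named. Alternatives were other barcode limits, doublet removal, TMM scaling (edgeR 4.0.16), thinning to 8000 UMIs, class standardisation, other clusterings, and sets of cells left out. No test across samples was possible with 1 library per domain.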

Additional observations from a re-analysis of the deposited data

Results flagged for a closer look

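Within 3 cell classes Edn1 ran opposite to its direction in fibroblast-like cells (log2 ratio, dorsal over ventral, -0.58 there): it was 0.74 in macrophage-like, 0.82 in mural-like and 0.23 in mesothelial-like cells. Ece1 did so in mural-like cells, at 0.58 against -0.98 in fibroblast-like cells. With 1 library per domain these differences between classes were not tested. Without marked doublets Edn1 was 0.16 (-0.74 to 1.12) in macrophage-like cells, an interval that holds 0, 0.88 in mural-like and 0.24 in mesothelial-like cells, and Ece1 was 0.67 in mural-like cells.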

How the results depend on the processing

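No paired analysis was possible because each domain is 1 library. Over 10 alternatives each, the pooled log2 ratios (dorsal over ventral) kept their sign, from -0.67 to -0.35 for Edn1, -0.70 to -0.44 for Ece1, 0.89 to 1.98 for Ednra and 1.52 to 2.32 for Ednrb. Values beyond their counting interval were, with at least 12000 UMIs, -0.50 for Edn1; with TMM scaling (which moves the median of all genes by over 0.1), -0.67 for Edn1, -0.70 for Ece1, 1.43 for Ednra and 1.91 for Ednrb; with cells thinned, -0.67 for Edn1, -0.44 for Ece1 and 1.79 for Ednra; with classes at their mean share, -0.52 for Ece1, 1.98 for Ednra and 1.52 for Ednrb. Without endothelial-like cells Edn1 was -0.35 and Ednrb 1.52, and without glial-like cells Ednrb was 2.32. Without the Gdf10 cluster Edn1 was -0.61, Ece1 -0.52, Ednra 0.89 and Ednrb 2.24, leaving 1 member past 2-fold in the dorsal direction. Leaving out sets of cells was chosen after seeing the data.

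The count of pairs of a member and a class at least 2-fold higher in ventral cells, 0 as reported, was 1 with 4000 variable genes, 1 at resolution 2.0, 1 with doublets removed and 1 with classes of at least 90 cells. Ednra in cardiomyocyte-like cells reversed to -0.075 with 4000 variable genes, where skeletal muscle cells joined the class. Edn1 in mural-like cells changed sign in 1 of 5 alternatives (-0.32). The glial-like ratios lie near 0 and changed sign in 2 of 5 alternatives for Edn1 (highest 2.18), 2 of 5 for Ece1 and 3 of 5 for Ednrb (-0.03 to 0.15). With 98 and 132 endothelial-like cells and 37 and 29 cardiomyocyte-like cells, counting intervals understate what another culture would give.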
